A study of Mus musculus with 22 samples.

Results

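Plasma and fallopian tube (FT) were set side by side in 3 control mice that gave both, mice 2, 3 and 4 of the control group. These 6 samples, 3 of control plasma (CS2, CS3 and CS4) and 3 of control FT (CT2, CT3 and CT4), are 6 of the 22 in the series. They were chosen because the study's sample list gives each plasma and tube pair in the same row, beside its genotype. That row is taken here to stand for the same mouse. The mice belong to a model in which a doxycycline-inducible Cre under the Pax8 promoter, active in tubal epithelium, deletes floxed tumor suppressor genes, and all 3 were left uninduced. Brca1 was fl/+ in mouse 2 and fl/fl in mouse 3, whereas mouse 4 carried Brca2 fl/fl. The sources used here do not say whether the controls carried the Cre transgenes, and no age is given. RNA was purified with a plasma and serum kit from plasma and with a tissue kit from tube, and 10 ng entered the assay from plasma against 100 ng from tube. Compartment, kit and input therefore cannot be told apart.

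MicroRNAs (miRNAs) are short RNAs that pair, mainly through a seed near their 5′ end, with messenger RNAs and lower their output. Plasma carries miRNAs released from blood cells, liver and other organs, bound to proteins or held in vesicles and cell remnants, whereas the tube is a wall of smooth muscle and stroma with vessels, lined by ciliated and secretory epithelium. Some miRNAs are made almost wholly in 1 cell type, such as miR-122 in hepatocytes and miR-451 in red cell precursors, and serve as markers of it.

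The assay counts a fluorescent barcode for each miRNA without amplification. Counts on the 566 mouse miRNAs summed to 36639, 18350 and 214285 in plasma of mice 2, 3 and 4 and to 288481, 185389 and 232838 in their tubes. The mean plus 2 SD of the 8 negative hybridization controls, used here as the detection level, lay at 45.5, 25.0 and 48.4 counts in plasma and at 67.7, 36.3 and 30.8 counts in tube. Because plasma of mice 2 and 3 was shallow, that level stood at 1243 and 1362 counts per 1000000 miRNA counts (CPM) there, against 226 in plasma of mouse 4 and between 132 and 235 in tube. Above it were 52, 61 and 125 miRNAs in plasma and 139, 140 and 202 in tube. The 4 housekeeping messenger RNAs on the same panel reached 1245 ± 671 (SD, n = 3) CPM of miRNA counts in plasma and 30668 ± 13607 in tube, with no overlap, and the two-sided exact permutation test gave p = 0.1, the smallest that 3 samples against 3 allow. In plasma of mice 2 and 3 these probes together had 29 and 17 counts, under the detection level of a single probe, so those plasma values cannot be told from background. All values below are shares, given in CPM of the sample's miRNA counts, so that a higher share of a few miRNAs lowers the share of all others.

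The miRNAs that the results turn on are shown with the seed (bases 2 to 8) in capitals, 5′ to 3′, from RefSeq on GRCm38.p6, where 46 of the 50 names looked up had an entry. The first 2 lines are red cell miRNAs of 1 locus on the plus strand of chromosome 11, miR-144 at chr11:78073047-78073066 and miR-451 at chr11:78073186-78073207, whose starts lie 139 bases apart. They are followed by miR-192, known from liver and gut.
miR-451: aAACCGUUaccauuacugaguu
miR-144: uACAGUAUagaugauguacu
miR-192: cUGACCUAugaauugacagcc
Next come 5 miRNAs with 1 common seed, of which miR-16, miR-15a and miR-15b were higher in plasma, miR-322 was higher in tube and miR-195 was not called.
miR-16: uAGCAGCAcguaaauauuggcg
miR-15a: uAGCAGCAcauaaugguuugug
miR-15b: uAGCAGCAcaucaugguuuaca
miR-195: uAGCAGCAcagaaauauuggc
miR-322: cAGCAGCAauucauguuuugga
The remaining lines give miRNAs with a higher share in tube, among them the epithelial miR-200c (minus strand, chr6:124718324-124718346) and its family, miR-135a, which lies at 2 loci, the stromal miR-125b-5p and miR-100, and miR-196b from a Hox cluster (minus strand, chr6:52230129-52230150).
miR-200c: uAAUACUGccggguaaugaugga
miR-200b: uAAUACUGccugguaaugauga
miR-429: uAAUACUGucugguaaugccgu
miR-135a: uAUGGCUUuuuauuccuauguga
miR-125b-5p: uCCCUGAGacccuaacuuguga
miR-100: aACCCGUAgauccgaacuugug
miR-196b: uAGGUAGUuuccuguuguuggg

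Across all 566 miRNAs, 64 differed between plasma and tube in their shares (edgeR's quasi-likelihood test, adjusted p under 0.05, and above the detection level in all 3 samples of the higher side). Of these, 20 (3.53% of those tested) were higher in plasma and 44 (7.77%) were higher in tube, and the 3 plasma values did not overlap the 3 tube values for 19 and 42 of them. The calls were made on these same values, so the lack of overlap is no separate support for them. As a call needs detection, these were 20 of the 46 miRNAs above the level in all plasma samples and 44 of the 123 above it in all tubes. Liver and red cell miRNAs led the plasma side. The 10 calls of greatest size toward tube were miR-135a, miR-200c, miR-196b, miR-100, miR-125b-5p, miR-143, miR-125a-5p, miR-204, miR-145 and miR-200a. A further 73 miRNAs passed the adjusted p toward plasma without rising above the negative controls in every plasma sample, and they were not counted, because a background count in a shallow sample is a large share. The median log2 fold change of plasma over tube was 0.72 over all 566 miRNAs and -0.40 over the 129 above the level in all 3 plasma or all 3 tube samples.

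The split between both sides depended on what each sample was scaled to. With TMM scaling 11 miRNAs were higher in plasma and 54 in tube. Scaled to geometric means, taken over the top 100 miRNAs of a tube and the top 30 of a plasma sample, the calls were 8 and 85. When miR-122 and miR-451 were left out of the total, the calls were 25 and 30. The median log2 fold change of all miRNAs was 0.03, -0.93 and 1.69 under these scalings in turn. All 44 tube calls kept their direction under the 7 other scalings tried, while 5 of the 20 plasma calls turned with the geometric means and 11 with the positive hybridization controls. A scaling moves all miRNAs of a sample alike, so this contrast depends on the scalings chosen. None moved far enough toward plasma to turn the smallest tube call, miR-98 (log2 fold change -1.14, at most -0.14 under any setting).

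**Figure D1:**
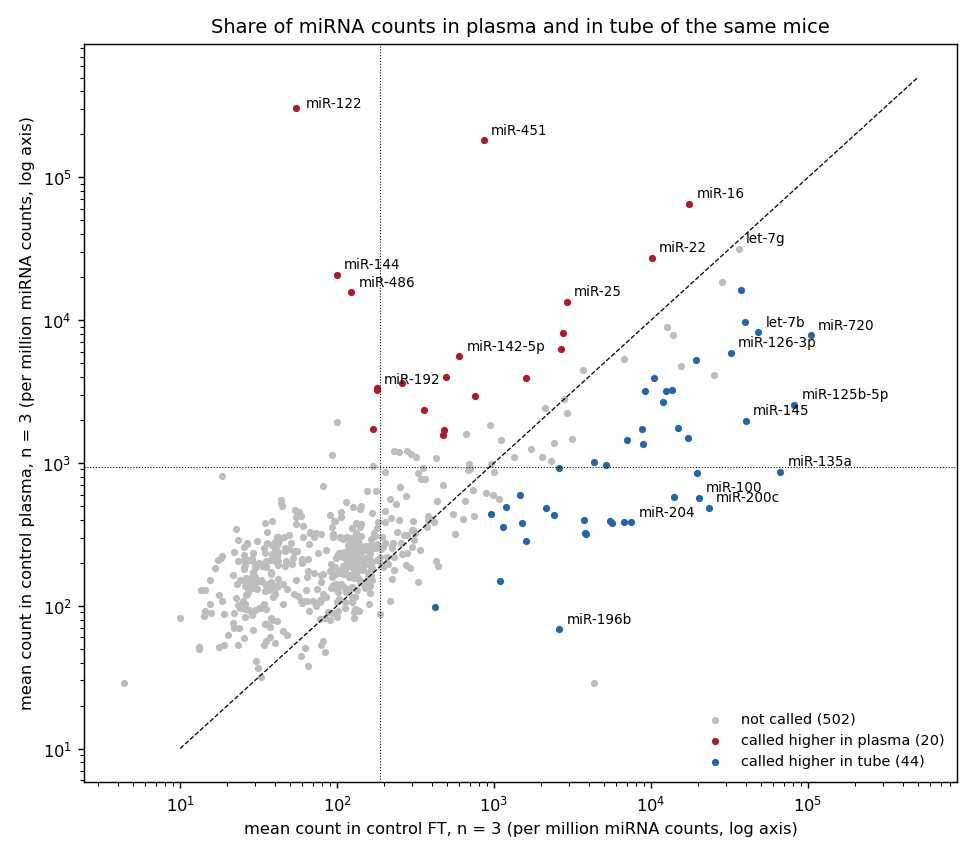
Mean share of each of the 566 miRNAs in control FT (horizontal log axis) and control plasma (vertical log axis) of the same 3 mice, in CPM of miRNA counts, with the 20 miRNAs called higher in plasma in red and the 44 called higher in tube in blue. The dashed line marks equal shares and the dotted lines the mean detection level of each compartment; miR-122 and miR-451 stand far above the dashed line and miR-135a, miR-200c and miR-196b far below it.

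Plasma was dominated by a few miRNAs. The 10 most abundant took 70.2% ± 6.04 (SD, n = 3) of the plasma counts and 51.9% ± 2.15 of the tube counts, and the 2 most abundant took 49.0% ± 5.20 and 19.4% ± 3.08 (p = 0.1 in each case, two-sided exact permutation test, the smallest it can give). In plasma those 2 were miR-122 and miR-451 in all 3 mice, and miR-16 came next in all 3. In tube miR-720, miR-125b-5p and miR-135a were among the 5 most abundant in every mouse. Over the same 129 miRNAs, shares correlated between samples of 1 compartment (Pearson's r of log2 shares from 0.79 to 0.90 within plasma and from 0.97 to 0.98 within tube) and less between plasma and tube of any mouse (0.26 to 0.37). These correlations run across miRNAs, which are not independent replicates.

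**Figure D2:**
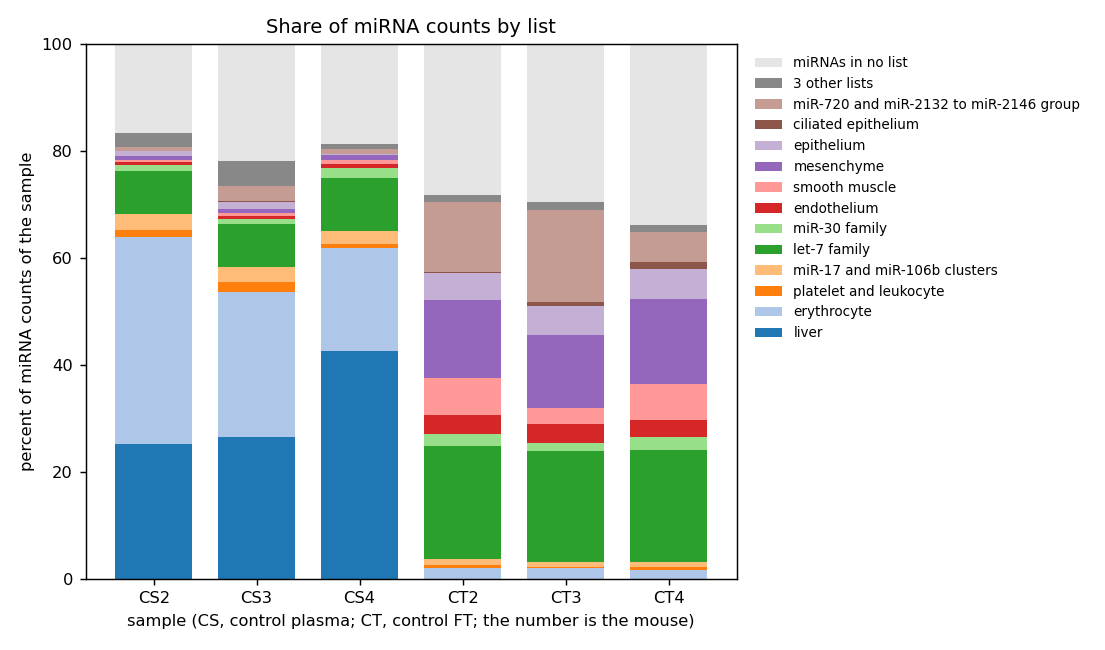
Percent of the miRNA counts of each sample that fell on each list of marker miRNAs or miRNA family, with plasma (CS) on the left and tube (CT) on the right and each bar adding to 100. Liver and erythrocyte lists fill the larger part of every plasma bar and under 3 percent of every tube bar, while mesenchyme, let-7 and the miR-720 group fill much of each tube bar.

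The 3 liver miRNAs held 25.2%, 26.5% and 42.7% of the plasma counts of mice 2, 3 and 4 and 0.0458%, 0.0399% and 0.0382% of the tube counts. All 3 were called higher in plasma (median log2 fold change 4.23, against 0.72 over all miRNAs). miR-122, which makes up most of the miRNA of hepatocytes, stood at 246240, 260109 and 417052 CPM in plasma and at 38.1, 53.9 and 73.0 in tube. Its rank among the 566 was 2, 1 and 1 in plasma. In tube it was not above the detection level in any sample, with counts of 11, 10 and 17, so its share was at least 1638-fold higher in plasma when the geometric mean of its plasma shares was set against that of the tube detection levels (fitted log2 fold change 12.44 ± 0.54 SE, edgeR adjusted p = 3.04e-09).

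miR-192 stood at 3221, 2561 and 3971 CPM in plasma and at 232, 140 and 163 in tube. In tube it was above the level in 1 of 3 samples, and with the level in place of the lower values its share was at least 16.3-fold higher in plasma (fitted log2 fold change 4.18 ± 0.45 SE, edgeR adjusted p = 1.58e-05). miR-194, which is transcribed with miR-192 at a locus on chromosome 19, stood at 2484, 2016 and 5493 in plasma and at 187, 205 and 146 in tube. It was above the level in 2 of 3 tube samples, and the bound was at least 15.8-fold (adjusted p = 3.81e-05). The highest liver values of the 3 plasma samples were those of mouse 4 for all 3 miRNAs.

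The 4 red cell miRNAs took 28.4% ± 9.77 (SD, n = 3) of the plasma counts and 1.86% ± 0.173 of the tube counts, and all 4 were called higher in plasma (median log2 fold change 7.34). miR-451, the miRNA that accumulates in maturing erythrocytes, stood at 250061, 174714 and 121128 CPM in plasma and at 652, 852 and 1074 in tube. Its share was 212-fold higher in plasma (log2 fold change 7.73 ± 0.47 SE, edgeR adjusted p = 1.00e-07). miR-144, its neighbor in the same primary transcript, stood at 31060, 17548 and 13641 in plasma, and in tube it remained below the detection level, at 72.8, 97.1 and 128.8. The bound was at least 107-fold (adjusted p = 2.64e-07).

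miR-486, also abundant in red cells, stood at 19515, 17820 and 9534 CPM in plasma and below the level in tube, at 128.3, 129.5 and 111.7, so it was at least 81.7-fold higher in plasma. All 3 of these ranked mouse 2 first, mouse 3 next and mouse 4 last in plasma, the reverse of the order in miR-122. The log2 ratio of miR-451 to miR-23a, a pair often used as a sign of red cell RNA in plasma, was 6.13, 5.92 and 5.20 in plasma and -4.33, -3.43 and -4.10 in tube. The part of red cells in the plasma samples was not tested.

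miR-16, which is abundant in red cells and in many other cells, stood at 86029, 61580 and 47955 CPM in plasma and at 19110, 18065 and 15320 in tube. It was 3.72-fold higher in plasma (log2 fold change 1.90 ± 0.34 SE, edgeR adjusted p = 0.00142), a call that was lost with TMM. miR-22 stood at 18669, 20545 and 42803 in plasma and at 8933, 11382 and 9900 in tube, a 2.72-fold higher share (adjusted p = 0.0192). The plasma values of both lay above all tube values. The call on miR-22 was lost with TMM, and scaled to the geometric means it turned to -0.38 on the log2 scale, which was not a call.

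**Figure D3:**
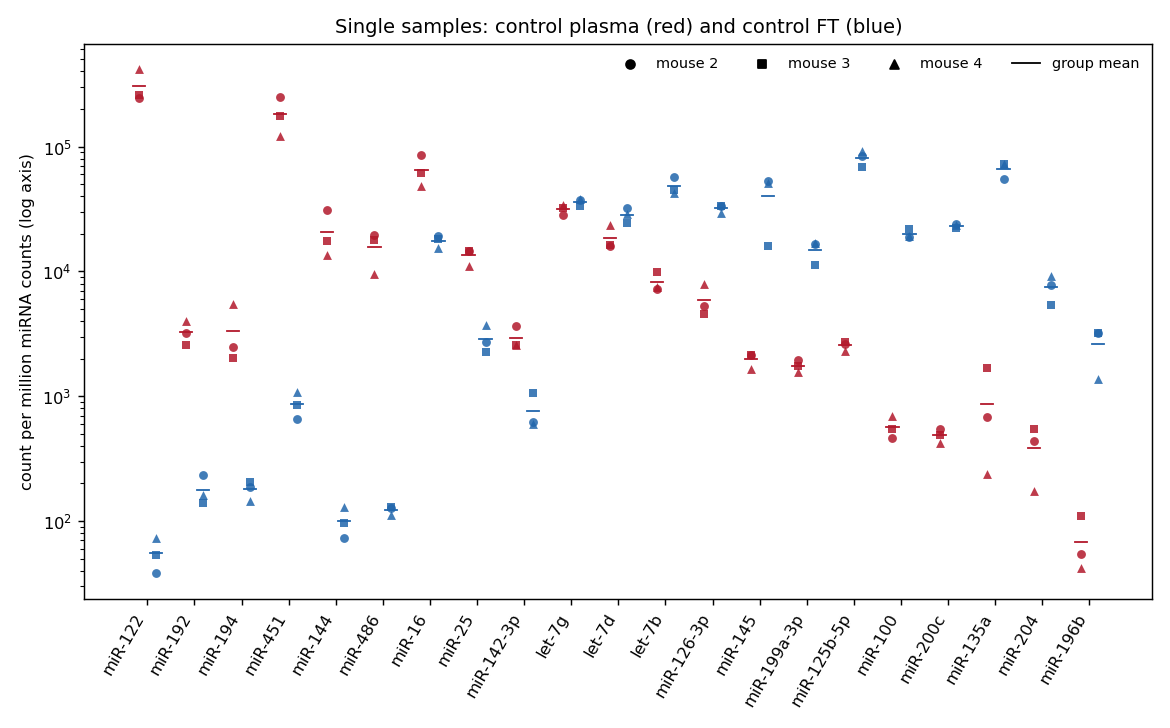
Share of 21 miRNAs in each of the 6 samples, in CPM of miRNA counts on a log axis, with plasma in red, tube in blue, a symbol for each mouse and a bar at each group mean. The groups are apart for the liver and red cell miRNAs on the left and, the other way round, for the tube miRNAs on the right, while let-7g overlaps.

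The miR-17 and miR-106b clusters, which are expressed in dividing and blood-forming cells, held 2.73% ± 0.364 (SD, n = 3) of the plasma counts and 0.961% ± 0.0295 of the tube counts. Of their 10 members, 3 were called higher in plasma and 7 were not called. Only 4 were above the level in all plasma samples, and 3 were above it in no sample. Over all miRNAs, 20 of the 46 above the level in all plasma samples were called. The median log2 fold change of the 10 was 2.24 (0.52 with the geometric means and -0.46 per positive control), but it includes members with counts not told from background. miR-25 stood at 14629, 14550 and 11130 CPM in plasma and at 2718, 2249 and 3724 in tube (4.63-fold, edgeR adjusted p = 7.44e-04). The probe shared by miR-106a and miR-17 gave 4012, 3815 and 3939 in plasma and 1751, 1451 and 1598 in tube (2.45-fold, adjusted p = 0.0198), and miR-19a was 3.28-fold higher (adjusted p = 0.00753). In plasma of mouse 3 miR-19a had 26 counts against a level of 25.0, and its call was lost with the level at the mean plus 3 SD. miR-92a, with the seed of miR-25, was above the level in no sample, so no difference is read from it. With TMM, DESeq2's size factors or the geometric means 0 of the 10 were called higher in plasma, and with miR-425 as the reference 1 was. With the geometric means the probe for miR-106a and miR-17 turned to -0.45 and miR-19a to -0.02.

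Of 5 miRNAs of platelets and leukocytes, 4 were above the level in all plasma samples, and 2 were called higher in plasma. These were both arms of miR-142, a hairpin of blood cells. Their number is near the share over all miRNAs, 20 of the 46 above the level in all plasma samples. Both arms turned below 0 when scaled to positive controls, where all plasma values of miR-142-5p lay below all its tube values. miR-142-3p stood at 3657, 2561 and 2567 CPM in plasma and at 621, 1063 and 601 in tube (3.85-fold, edgeR adjusted p = 0.00475), and its call was lost with TMM. miR-223, a miRNA of myeloid cells and platelets, stood at 1829, 1853 and 1129 in plasma and at 891, 367 and 739 in tube. The plasma values were all higher but the test missed the threshold (log2 fold change 1.25 ± 0.45 SE, adjusted p = 0.0552), and it passed with the mouse as a block (adjusted p = 0.0452). miR-150, of mature lymphocytes, had a log2 fold change of 0.01 ± 0.45, with 2456, 2452 and 3514 in plasma and 3820, 1208 and 3350 in tube.

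Some miRNAs called higher in plasma had counts that did not follow the depth of the sample. miR-466g, a member of the large cluster in an intron of Sfmbt2, had 133, 122 and 118 counts in plasma, although the totals ranged from 18350 to 214285, and 94, 44 and 50 in tube (log2 fold change of shares 3.77 ± 0.71 SE, edgeR adjusted p = 0.00203). miR-142-5p had 192, 199 and 153 counts in plasma and 237, 109 and 92 in tube, and its shares overlapped between the groups. miR-1186 had 156, 124 and 215 in plasma and 168, 72 and 117 in tube. miR-1896 had 83, 72 and 177 in plasma and 103, 53 and 101 in tube. For these 4 the share was highest in the shallowest sample, plasma of mouse 3, and the part of probe background in them was not tested.

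Per positive hybridization control, spikes of fixed amount that give counts per assay and not shares, only miR-122 of the 20 was still called higher in plasma (log2 fold change 10.75 ± 2.34 SE, edgeR adjusted p = 0.00131). On this scale 4 miRNAs, miR-122, miR-451, miR-144 and miR-486, had plasma values that lay above all tube values although plasma entered with less RNA, and 11 of the 20 had a log2 fold change below 0. miR-451 had 5.25 ± 1.84 (adjusted p = 0.0629) and miR-144 had 5.22 ± 1.77 (adjusted p = 0.0532). In tube, 23 miRNAs were called on this scale, and all 23 were among the 44.

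**Figure D4:**
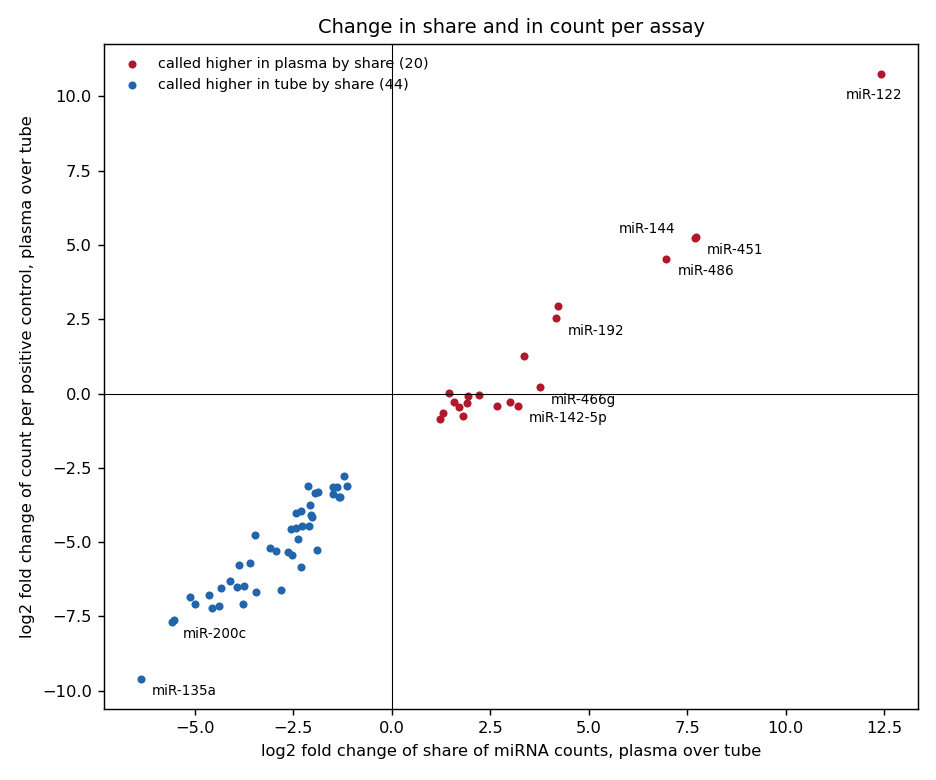
For the 64 miRNAs called by share, the log2 fold change of plasma over tube in share of miRNA counts (horizontal) against that in counts per positive hybridization control (vertical), with both zero lines drawn. Tube calls in blue stay below 0 on both axes, while 11 of the 20 plasma calls in red lie below 0 on the vertical axis and miR-122 lies at 10.75.

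Of the 44 miRNAs called higher in tube, 14 were above the detection level in all 3 plasma samples, 4 in 2 of them, 16 in 1 and 10 in none. For those in 1 or 2 the fold is given as a bound, with the level in place of any plasma value below it. Of the 30 tube calls not above the level in all plasma samples, 29 had a bound above 1 by geometric means. For 21 it was above 1 in every mouse. In bulk samples fewer cells of a type and less RNA per cell cannot be told apart. Of 10 epithelial miRNAs, 4 were called higher in tube (median log2 fold change -1.20, against 0.72 over all miRNAs), and the list took 5.46% ± 0.336 (SD, n = 3) of the tube counts and 0.811% ± 0.523 of the plasma counts. miR-200c, which holds epithelial cells in their state by repressing Zeb factors, stood at 23998, 22439 and 23514 CPM in tube and at 546, 491 and 425 in plasma. It was above the level in plasma of mouse 4 alone, and its share was at least 26.0-fold higher in tube (fitted log2 fold change of plasma over tube -5.59 ± 0.40 SE, edgeR adjusted p = 3.17e-07). miR-200a stood at 6077, 6662 and 7288 CPM in tube and at 573, 273 and 308 in plasma, also above the level in 1 plasma sample (at least 8.27-fold, adjusted p = 1.69e-05).

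miR-429 was above the level in every tube sample and in no plasma sample, at 4430, 5265 and 6786 CPM in tube, which bounds the difference at 7.45-fold or more. miR-141 stood at 1595, 2411 and 2418 in tube, at least 2.90-fold over the plasma level (edgeR adjusted p = 0.0306). miR-141 and miR-200c come from 1 locus, with starts 407 bases apart, and miR-429 and miR-200b from another, with starts 1769 bases apart. miR-200b stood at 13017, 17676 and 15732 in tube and at 4476, 8883 and 910 in plasma. All its plasma values were lower, yet the difference missed the threshold (log2 fold change -1.72 ± 0.60 SE, adjusted p = 0.0510) and passed with the mouse as a block (adjusted p = 2.62e-04). Its plasma counts of 164, 163 and 195 did not follow the depth of the samples, and what they hold was not tested.

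The difference of greatest size toward tube was that of miR-135a, with 55085, 73106 and 71908 CPM in tube and 682, 1689 and 238 in plasma, where 2 of 3 samples were above the level (at least 83.4-fold by geometric means, fitted log2 fold change -6.36 ± 0.66 SE, edgeR adjusted p = 1.32e-05). It ranked 4, 2 and 2 in tube and 82.5, 51.5 and 120 in plasma, where ties take their mean rank. miR-196b, from a Hox cluster, stood at 3227, 3199 and 1374 in tube, and its plasma counts were 2, 2 and 9. By geometric means over the 3 samples it was at least 3.33-fold over the plasma detection levels, and 2.35-fold in the mouse with the lowest ratio (adjusted p = 1.82e-05). miR-204, encoded in an intron of Trpm3, stood at 7848, 5432 and 9182 in tube and below the level in plasma, at least 10.1-fold apart by geometric means and 3.99-fold in the mouse with the lowest ratio (adjusted p = 3.61e-05).

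Of 8 mesenchymal miRNAs, 7 were called higher in tube, and the list took 14.6% ± 1.12 (SD, n = 3) of the tube counts and 0.768% ± 0.0413 of the plasma counts (median log2 fold change -3.63). miR-125b-5p, abundant in fibroblasts and other stromal cells, was among the 3 most abundant in every tube, at 83392, 69152 and 92532 CPM, and stood at 2620, 2725 and 2324 in plasma. Its share was 32.0-fold higher in tube (log2 fold change -5.00 ± 0.36 SE, edgeR adjusted p = 3.29e-07). miR-100 stood at 18955, 22051 and 19185 in tube and at 464, 545 and 700.0 in plasma, above the level in 1 plasma sample (at least 18.9-fold, adjusted p = 7.74e-07). miR-99a, above it in 1 as well, was at least 10.5-fold and miR-199a-3p 8.51-fold higher in tube, with no overlap in either. miR-214 was the member not called.

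The smooth muscle miRNAs miR-143 and miR-145, made from 1 primary transcript and known as markers of contractile muscle, were both called higher in tube. miR-145 stood at 53026, 15977 and 51169 CPM in tube and at 2156, 2125 and 1657 in plasma (20.3-fold, edgeR adjusted p = 2.45e-05), and the tube of mouse 3 was low next to the other two. miR-143 stood at 14743, 12455 and 14895 in tube, where mouse 3 was not far from the others, and at 546, 708 and 476 in plasma, of which 1 was above the level (at least 15.0-fold, adjusted p = 2.19e-06). The 3 other muscle miRNAs were not called, miR-1 (log2 fold change 0.20 ± 0.44), miR-133a and miR-133b, and the list took 5.66% ± 2.19 (SD, n = 3) of the tube counts and 0.577% ± 0.118 of the plasma counts.

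Both arms of miR-126, a hairpin of endothelial cells, were higher in tube (0.650% ± 0.166 of plasma counts and 3.36% ± 0.242 of tube counts for the pair). miR-126-3p stood at 33728, 33497 and 29235 CPM in tube and at 5322, 4523 and 7882 in plasma (5.42-fold, edgeR adjusted p = 2.43e-04). miR-126-5p was above the level in 1 plasma sample, with a bound of 1.52-fold by geometric means and 0.83 in the mouse with the lowest ratio. Its call was lost when any 1 tube was left out and when miR-122 and miR-451 were left out of the total. The miR-29 members, which repress collagens and other matrix genes, were all higher in tube, miR-29b by 3.84-fold, miR-29a by 3.66-fold and miR-29c by 2.84-fold. All of these calls were lost when miR-122 and miR-451 were left out of the total. Of 30 alternatives, 23 kept the calls on miR-29a and miR-29b and 19 kept that on miR-29c. miR-148a was abundant in both, at 30078, 31701 and 50778 in tube and at 10754, 12807 and 24953 in plasma, with its highest value in mouse 4 on both sides (2.32-fold higher in tube, edgeR adjusted p = 0.0416). Its call was lost with TMM and when any 1 tube was left out, and 14 of the 30 alternatives kept it.

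Ciliated cell miRNAs were less even. Of 6, both arms of miR-34b were called higher in tube, miR-34b-5p with 631, 1823 and 2358 CPM in tube and no plasma sample above the level (at least 1.92-fold by geometric means, edgeR adjusted p = 0.00672). In the mouse with the lowest ratio the bound was 0.51 for miR-34b-5p and 0.61 for miR-34b-3p. miR-34c was listed at 1 count in the tube of mouse 2 and at 809 and 1995 counts in those of mice 3 and 4, and at 1 in all 3 plasma samples. It was not called, since it was not above the level in all tubes. The list took 0.167%, 0.729% and 1.30% of the tube counts.

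miR-720, a sequence since reassigned to a tRNA fragment, was the most abundant in the tubes of mice 2 and 3. It stood at 109487, 152787 and 49945 CPM in tube and at 1337, 18638 and 3556 in plasma (13.4-fold higher in tube, log2 fold change -3.74 ± 0.79 SE, edgeR adjusted p = 0.00444). Mouse 3 had the highest value in both compartments. Its list of 16 early panel entries held 12.0% ± 5.88 (SD, n = 3) of the tube counts and 1.44% ± 1.20 of the plasma counts, with 3 members called higher in tube and 1, miR-2140, higher in plasma. miR-2140 stood at 2211, 1635 and 1353 CPM in plasma and below the level in tube, at least 9.30-fold apart.

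The let-7 family, 9 miRNAs that accumulate in differentiated cells, took 20.9% ± 0.281 (SD, n = 3) of the tube counts and 8.71% ± 1.03 of the plasma counts. Of its members, 5 were called higher in tube and 4 were not called (median log2 fold change -1.40). With the mouse as a block miR-98 was no longer called (adjusted p = 0.0929) and let-7a was (adjusted p = 3.17e-07). let-7b stood at 57376, 45294 and 42394 CPM in tube and at 7287, 9809 and 7560 in plasma (5.89-fold, edgeR adjusted p = 1.02e-04). let-7g, in contrast, stood at 37559, 33314 and 37932 in tube and at 28440, 32316 and 34118 in plasma, and the groups overlapped (log2 fold change -0.20 ± 0.30, adjusted p = 0.677). That of let-7d was -0.61 ± 0.33 and that of let-7i was -0.51 ± 0.33. Without miR-122 and miR-451 in the total, let-7g turned to 0.78 and was called higher in plasma (adjusted p = 0.0459). let-7b and let-7g differ at 4 of 22 bases and other pairs of the family at 1, so that cross-hybridization between members cannot be told apart from their own levels.

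Members with 1 seed did not move as 1 block. Of 6 with the seed AGCAGCA, miR-16, miR-15b and miR-15a were higher in plasma, by 3.72-fold, 2.99-fold and 2.34-fold, whereas miR-322, the mouse counterpart of human miR-424, was higher in tube, at 4725, 3382 and 3359 CPM against 327.5, 381.5 and 261.3, of which 1 was above the level (at least 4.95-fold, edgeR adjusted p = 3.81e-05). miR-195, which differs from miR-16 at 2 of 21 bases, had a log2 fold change of -0.02 ± 0.58 and was above the level in no plasma sample. Within mice, the log2 ratio of plasma over tube of miR-16 was 2.17, 1.77 and 1.65, and that of miR-322 was -3.85, -3.15 and -3.68. With the geometric means miR-15a and miR-15b, though not miR-16, turned below 0, and with the positive controls all 3 did.

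**Figure D5:**
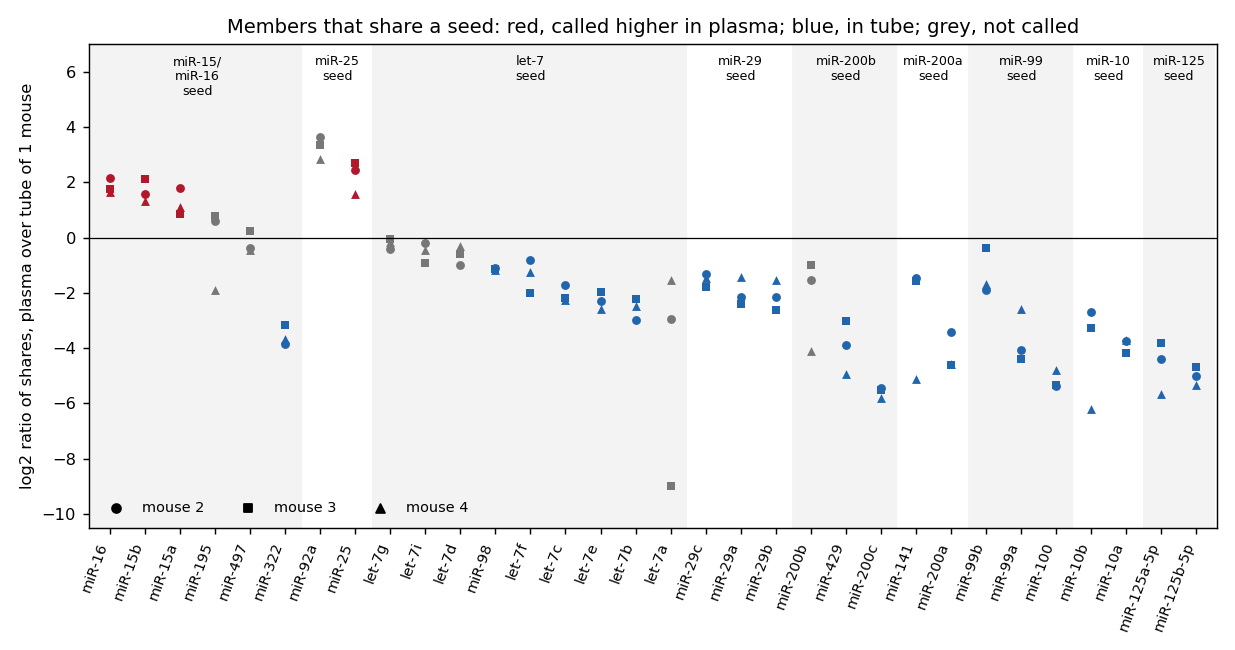
Log2 ratio of the shares in plasma over tube of the same mouse for members of 9 groups with a common seed, with a symbol for each mouse, red for called higher in plasma, blue for called higher in tube and grey for not called. In the miR-15 and miR-16 group the members spread from above 0 to miR-322 at -3.85 to -3.15, and the value of let-7a near -9 is that of mouse 3, listed at 1 count in plasma.

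Among those with the seed ACCCGUA, the share in tube was at least 18.9-fold higher for miR-100, 10.5-fold for miR-99a and 1.33-fold for miR-99b, which were each above the level in 1 plasma sample. These bounds are by geometric means, and that of miR-99b was 0.67 in the mouse with the lowest ratio. miR-100 and miR-99a differ at 1 of 22 bases, and a probe for either may catch the other. Both miR-10 members, from Hox clusters, were higher in tube, miR-10a, above the level in 1 plasma sample, by at least 6.34-fold (edgeR adjusted p = 1.58e-05) and miR-10b by at least 5.25-fold. miR-125a-5p, with the seed of miR-125b-5p, was at least 21.3-fold higher in tube (adjusted p = 1.12e-05), with 1 plasma sample above the level.

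Sorted by detection alone, 40 miRNAs were above the level in all 6 samples, 4 in all plasma and no tube samples, 24 in all tube and no plasma samples, and 347 in none. The 4 of plasma alone were miR-122, miR-144, miR-486 and miR-2140. The last lay near the level, with 61, 34 and 26 counts in tube against levels of 67.7, 36.3 and 30.8. In plasma of mouse 3 it had 30 counts against a level of 25.0. Its call was lost with the level at the mean plus 3 SD. Of the 24 of tube alone, 10 were called higher in tube, and for 9 the bound against the plasma level, by geometric means, was above 1. The largest bounds were those of miR-204, miR-429, miR-10b and miR-375, a miRNA of neuroendocrine and islet cells, at least 4.43-fold higher in tube. For the other 15, of which 1 (miR-450a-5p) was called, the bound was not above 1. Without plasma of mouse 4, the deepest of the 3, the number of tube alone was 70. The miRNAs added to it were above the level in plasma of mouse 4 and not in those of mice 2 and 3.

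The 12 miRNAs above the level in all plasma samples and not called were let-7d, let-7g, let-7i, miR-30a, miR-30c, miR-1, miR-150, miR-21, miR-223, miR-200b, miR-378 and the probe for miR-20a and miR-20b. None of the 5 miR-30 members was called (median log2 fold change -0.36). miR-30c, the most abundant of them, stood at 4940, 5232 and 13253 CPM in plasma and at 14413, 8803 and 18403 in tube, with overlap. With the geometric means, 4 of the 5 were called higher in tube. Of the 58 miRNAs of the imprinted Dlk1-Dio3 cluster none was called (median 0.85, close to that of all miRNAs), and 42 were above the level in no sample. Of the 33 of the Sfmbt2 cluster 29 were above it in none. Of 10 miRNAs of brain, heart, skeletal muscle and pancreas, miR-375 was called and 8 were above it in no sample.

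The contrast was also taken in 4 doxycycline-induced mice with both tumor plasma and FT, whose floxed alleles were recombined. Of the 20 plasma calls in controls 18 had the same sign there, and 6 of them passed the threshold. Of the 44 tube calls 41 had the same sign, and 23 passed. The same counts over all 566 miRNAs were not taken. Plasma entered with 10 ng against 100 ng from tube in these mice too, so the counts are not read as replication. miR-122 had a log2 fold change of 7.68 ± 1.56 SE in induced mice, miR-451 of 4.96 ± 1.33, miR-200c of -6.99 ± 1.38 and miR-135a of -7.72 ± 1.46. A test of the difference between control and induced mice called 0 of 566 miRNAs (0.0%, edgeR, lowest adjusted p = 0.192), with 110 at an unadjusted p under 0.05, and 0 by DESeq2. The difference was -4.75 ± 1.60 for miR-122 (adjusted p = 0.192). In the induced tubes miR-122 stood at 74.1, 7838, 74.2 and 945 CPM, so its value in FT3 was far from the others, and miR-451 stood at 393, 13554, 436 and 1257 in the same order. Without control plasma of mouse 4, 79 miRNAs passed the test of the difference, of which 2 were above the level throughout a group.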

How the data were processed

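Barcode counts of the NanoString nCounter mouse miRNA assay were used for 6 samples of control mice and, for 1 comparison, 8 of induced mice. The authors deposited counts as whole numbers for 626 probes, of which 566 are mouse miRNAs and 60 are controls, messenger RNAs and other probes. Every column could be tied to a sample, with 0 left over. The normalization in nSolver described in the methods is not carried by these counts, and any correction before deposit is not stated in the sources used here. Other probes took 60.7% ± 32.0 (SD, n = 3) of all counts in plasma and 16.3% ± 4.10 in tube.

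Counts were tested as deposited in R 4.3.3 by the quasi-likelihood test of edgeR 4.0.16 (total miRNA count as library size, all 566 miRNAs, Benjamini-Hochberg adjustment, threshold 0.05). A call also needed a count above the mean plus 2 SD of the 8 negative hybridization controls in all 3 samples of the higher side. A bound (at least N-fold) sets the geometric mean of the shares on the higher side against the geometric mean, on the other, of each sample's share or detection level, whichever is higher. With 3 mice, p-values measure the spread between these samples. The script was tested on simulated data. Alternatives used DESeq2 1.42.0, limma 3.58.1 with pseudocounts of 100 and 1000 CPM, the methods' t-test, other scalings, filters and samples left out. Figures and permutation tests used Python 3.11.15, numpy 2.4.6, pandas 2.3.3, scipy 1.17.1 and matplotlib 3.10.9.

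Named are, among calls whose groups did not overlap, the 10 of greatest size in each direction, the 5 highest shares in plasma and in tube, and up to 4 members of each of 15 lists with the highest shares. Others, such as same-seed relatives, the miR-29 members, let-7a and members that stand for a count, were picked after their values were seen. The samples, lists and tests were chosen with earlier results of these data known. The lists come from general knowledge. Further alleles of the mice are not reported here. In controls the number of a sample is taken to mark its mouse, because the study's sample list gives tissue and plasma of that number in the same row. In induced mice the numbers differ, and the rows pair FT2 to FT5 with TS1 to TS4 in turn. The deviations of plasma and tube from their group means correlated over 566 miRNAs by -0.07, 0.10 and 0.14 in mice 2, 3 and 4. Between plasma and tube of different mice they ran from -0.20 to 0.11, so these values do not settle the pairing.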

Additional observations from a re-analysis of the deposited data

How the results depend on the processing

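With the mouse as a replicate block, 21 miRNAs were higher in plasma and 45 in tube, and 20 and 43 of the original calls were among them. The block added let-7a, miR-200b and miR-223 and dropped miR-98, and it left the test between control and induced mice at 0.

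Calls higher in plasma, 20 with the total miRNA count, were 11 with TMM and 11 with DESeq2's size factors, 8 with the geometric means, 12 with miR-425, 12 by DESeq2's own test, 6 by the methods' t-test after adjustment, 13 with the spread taken over all 22 samples, 93 with no detection level and 1 with the positive controls. Calls higher in tube, 44 before, were 85 with the geometric means, 11 by the adjusted t-test, 23 with all 22 samples and 23 with the positive controls. Without adjustment the t-test passed 15 and 44. The share of calls that were higher in plasma was 31.25% with the total and 16.9% with TMM, 17.2% with DESeq2's size factors, 8.60% with the geometric means, 19.7% with miR-425, 45.5% without miR-122 and miR-451, 67.4% with no detection level and 4.17% with the positive controls.

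Leaving out 1 sample or 1 mouse gave 8 to 22 calls higher in plasma and 27 to 54 higher in tube. Without mouse 2 the calls were 8 and 27, without mouse 3 they were 12 and 34, and without plasma of mouse 2 alone 20 and 27. In all, 5 plasma calls (miR-122, miR-144, miR-192, miR-451 and miR-486) and 11 tube calls were made under all 29 alternatives other than the positive controls. miRNAs of tube alone ranged from 24 to 71 as samples or mice were left out, with 70 without plasma of mouse 4 and 71 without that mouse. miRNAs above the level in all 6 samples rose from 40 to 65 with the negative ligation controls. The difference between control and induced mice gave 0 to 79 calls as samples were left out, 79 without control plasma of mouse 4 and 1 without induced FT5.

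Of the named miRNAs called in the main test or under the other scaling, those whose sign turned did so under 3 scalings. Turns of miRNAs called in neither are not listed. With the geometric means these were miR-1 (-1.64), miR-150 (-1.77), the probe for miR-20a and miR-20b (-1.46), that for miR-106a and miR-17 (-0.45), miR-19a (-0.018) and miR-22 (-0.38). With the positive controls they were miR-106a and miR-17 (-0.64), miR-1186 (-0.28), miR-142-3p (-0.093), miR-142-5p (-0.43), miR-16 (-0.33), miR-1896 (-0.41), miR-19a (-0.45) and miR-25 (-0.038). miR-15a and miR-15b turned under both. Without miR-122 and miR-451 it was let-7g (0.78). These shifts follow from the construction of the scalings, which move all miRNAs of a sample alike. The scaling to positive controls and the total without miR-122 and miR-451 were chosen after seeing the data. Plasma of mice 2 and 3 sets the depth limit, where a miRNA under about 1243 and 1362 CPM could not be told from the negative controls.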

Other observations

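Values that belong in none of the comparisons above concern single samples. In plasma of mouse 4 miR-1 stood at 3901 CPM against 1474 and 1853 in plasma of mice 2 and 3, miR-133a at 854 against 409 and 272.5, and miR-206, of skeletal muscle, at 663 against 382 and 436. Only miR-1 was above the detection level in all of these samples. In plasma of mice 2 and 3 that level was 1243 and 1362 CPM, and miR-133a had 15 and 5 counts and miR-206 14 and 8. No difference of mouse 4 is therefore read from miR-133a and miR-206. miR-133b, miR-143 and miR-145, in contrast, were lowest in that sample. Of these, miR-145 was above the level in every plasma sample, miR-143 in that of mouse 4 alone and miR-133b in none.

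miR-376a, of the Dlk1-Dio3 cluster, had 86, 60 and 34 counts in plasma of mice 2, 3 and 4 and 30, 17 and 24 in tube. Its share was above all tube values in each plasma sample, but it was below the detection level in plasma of mouse 4 and was not called.

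let-7a was listed at 1 count in plasma of mouse 3, while the same miRNA had 97 and 2086 counts in plasma of mice 2 and 4 and 5886, 5092 and 6546 in tube. A count of 1, the lowest value in the files, was given to 28, 40 and 5 miRNAs in plasma of mice 2, 3 and 4 and to 2, 7 and 7 in tube. miR-34c was at 1 in the tube of mouse 2 and in that of CT5, a control without a plasma sample here, and at 2241 in CT1. Its counts in the 4 induced tubes were 1, 411, 1 and 2014. Whether such values were set before deposit was not tested.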
